A study of Mus musculus with 9 samples.

Results

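Midbrain of mice with 1 floxed Dot1l allele, Dot1l(fl/+), was compared with midbrain of Dot1l(+/+) mice at postnatal day 180 (6 months). The libraries were chosen by the genotype in their labels, which gave 3 of Dot1l(fl/+) and 3 of Dot1l(+/+), the controls, and these are 6 of the 9 libraries of the series. The 3 Dot1l(fl/fl) libraries entered the estimate of the spread, and their values are given beside those of Dot1l(fl/+) only for side-by-side reading. All mice, controls included, were C57/Bl6 (C57BL/6J in the study's methods) and carried the same Cre and reporter alleles, Pitx3-Cre/+ and Rosa-lox-stop-lox-Yfp. Pitx3 is active in dopamine neurons of the midbrain, so Cre acts in these neurons, while the dissected dopamine area of the ventral midbrain also holds other neurons, glia and vessels without Cre. Tissue of 3 mice was pooled for each library, and single mice within a pool cannot be told apart. The series text speaks of sorted cells at E15.75, whereas each library's own labels give dissected tissue at day 180, and the labels were followed.

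DOT1L methylates lysine 79 of histone H3 along the body of transcribed genes. It works in a complex with AF10 and AF17 (Mllt10 and Mllt6) and with the YEATS-domain proteins ENL and AF9 (Mllt1 and Mllt3), which connect it to the elongation machinery of RNA polymerase II. In Dot1l(fl/+) mice Cre can remove the floxed exon from 1 allele of a Pitx3-expressing cell, and the other allele remains.

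The 6 libraries held between 21052642 and 28403218 counts on genes. Their TMM factors, which correct the totals for composition, lay between 0.988 and 1.01 over all 9 libraries. Levels are given in CPM, counts scaled to a common library size after TMM, in the order pool 1, pool 2, pool 3. The pools of both genotypes differed in sex, which the labels do not give. Xist, the RNA that silences 1 X chromosome in females, was at 6.90, 777 and 819 CPM in the controls. In Dot1l(fl/+) Xist was at 13.7, 745 and 627 CPM. The Y-linked helicase gene Ddx3y was at 126, 0 and 0.0376 CPM in controls and at 118, 0 and 0.0763 CPM in Dot1l(fl/+). Pool 1 of each genotype therefore carried the male pattern and pools 2 and 3 the female pattern, so sex was balanced between the genotypes. Among the tissue markers, the 8 for dopamine neurons were all measured and summed to 616 to 679 CPM in controls and to 478 to 624 CPM in Dot1l(fl/+). The 6 oligodendrocyte markers summed to 10052 to 11088 CPM and 10178 to 11515 CPM, so the label "midbrain dopamine neurons" covers a mixed tissue. In such bulk tissue, fewer cells of a type and less RNA per cell cannot be told apart.

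Dot1l (ENSMUSG00000061589, chr10:80755206-80795461, GRCm38) was at 85.2, 80.2 and 85.1 CPM in the controls and at 84.2, 60.6 and 75.6 CPM in Dot1l(fl/+). Pool 1 of Dot1l(fl/+) lay within the control range and pools 2 and 3 below it (log2 fold change −0.19, SE 0.094, unadjusted p = 0.069). The counts are of the whole gene and do not measure the floxed exon. Without pool 2 of Dot1l(fl/+) the difference was −0.063, and without pool 1 it was −0.29. The unadjusted edgeR p-value fell to 0.0163 with the replicate number as a block, to 0.0354 with an offset for length and GC content, to 0.0166 with both and to 0.0458 with a term for sex, at log2 fold changes of −0.19, −0.18, −0.19 and −0.19. On the 6 compared libraries alone this p-value was 0.0868, and without control pools 1, 2 and 3 it was 0.145, 0.0802 and 0.15. Without Dot1l(fl/+) pools 1, 2 and 3 it was 0.00549, 0.351 and 0.0769. None of these passed adjustment over all genes.

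In the edgeR quasi-likelihood test of 17671 genes, 0 (0%) had an adjusted p-value under 0.05, and the lowest was 0.412. DESeq2 called 3 genes on all 9 libraries and 45 on the 6 compared. At an unadjusted p under 0.05, 760 genes were higher in Dot1l(fl/+) (4.3%) and 723 were lower (4.09%). At an unadjusted p under 0.01 there were 179 higher (1.01%) and 136 lower (0.77%). With gene length and GC content as an offset the first pair was 792 higher and 456 lower. Without any test, the 3 pools of Dot1l(fl/+) all lay above the 3 control pools in 1208 genes (6.84%) and all below them in 1144 genes (6.47%). The median absolute log2 fold change was 0.090 and the median standard error 0.10, so the typical difference was smaller than the typical error. The counts under 0.05 rested on single pools. Without pool 1 of Dot1l(fl/+) they were 1123 higher and 1112 lower, without its pool 2 843 and 975, and without its pool 3 519 and 492. Without control pools 1, 2 and 3 they were 659 and 630, 705 and 499, and 545 and 431. For this reason genes are described below by their level in each pool and by an unadjusted edgeR p, none of which passed adjustment in this fit, and lists by counts set beside these shares of all genes. Counts of a list with 1 pool left out or with the offset are to be read beside the counts of all genes in that same fit.

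Of the protein-coding genes outside the respiratory chain and the ribosomes, 13413 had a mean of at least 1 CPM. Of these, 504 were higher and 604 lower at an unadjusted p under 0.05. The male pool 1 of Dot1l(fl/+) lay nearest to the controls in 365 of the 504 and in 366 of the 604. Its median deviation from the control mean was 0.12 log2 units in the higher genes, against 0.24 in both pool 2 and pool 3. In the lower genes the median deviations of pools 1, 2 and 3 were −0.13, −0.22 and −0.25. The male effect rests on 1 pool per genotype and has no replicate, so whether the effect differs between the sexes cannot be told from these pools. An edgeR test of that difference, which assumes that male pools vary like female ones, gave 0 genes past an adjusted p-value of 0.05 and 410 under an unadjusted 0.05 (2.32%). With the sex of the pool as a term, the counts at an unadjusted p under 0.05 were 787 higher and 729 lower. In the female pools alone, 1 gene passed adjustment, Pla2g4e, a phospholipase A2 (log2 fold change −1.735, edgeR adjusted p = 0.00335).

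**Figure D1:**
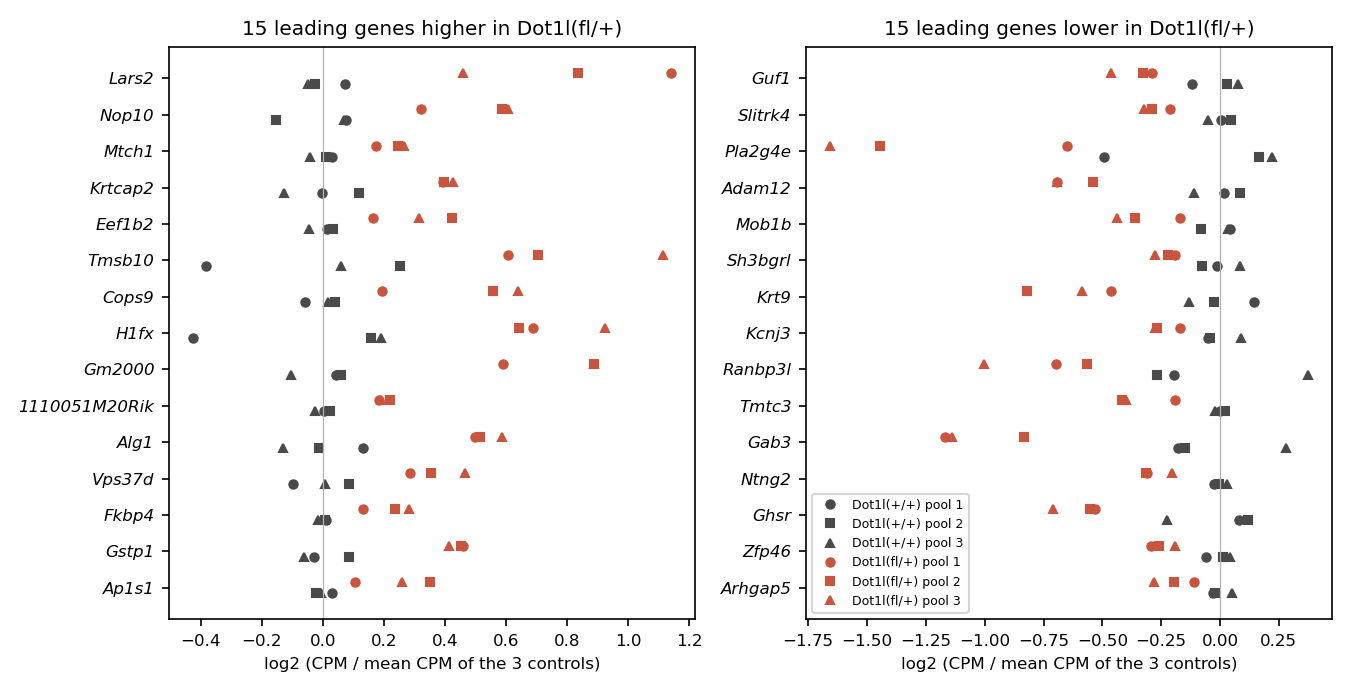
Protein-coding genes outside the respiratory chain and ribosomes with the lowest unadjusted p among those whose pools do not overlap, 15 higher (left) and 15 lower (right) in Dot1l(fl/+). Each point is 1 pool, given as the log2 ratio of its CPM to the mean of the 3 control pools; grey are controls and red Dot1l(fl/+), and in each gene the red points lie on 1 side of the grey ones, as the choice of genes requires.

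Guf1, a GTPase of mitochondrial translation, had the lowest unadjusted p among the lower of these genes, and the plot of leading genes shows it with the others. The brain phospholipase gene Pla2g4e (ENSMUSG00000050211, chr2:120166412-120245335) had a far larger fold. It was at 11.6, 18.4 and 19.1 CPM in controls and at 10.4, 6.01 and 5.19 CPM in Dot1l(fl/+). All Dot1l(fl/+) pools lay below all controls, but pool 1 of the controls was close to pool 1 of Dot1l(fl/+) (log2 fold change −1.19, SE 0.26, unadjusted p = 0.000502). Beside it, the difference of Dot1l(fl/fl) from the same controls was −0.64. Adam12, a membrane metalloprotease, was at 4.68, 4.89 and 4.28 CPM in controls and 2.86, 3.18 and 2.86 CPM in Dot1l(fl/+). Its groups were well apart and its pools differed little within a group (log2 fold change −0.64, SE 0.14, unadjusted p = 0.000516). Tmtc3, an O-mannosyltransferase of the ER that acts on cadherins, was at 27.5, 27.9 and 27.1 CPM against 24.1, 20.6 and 20.8 CPM (log2 fold change −0.33, SE 0.078, unadjusted p = 0.000869).

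Ghsr, also among the leading lower genes, encodes the receptor of ghrelin, the stomach hormone that dopamine neurons of the midbrain can sense. Its levels were 5.82, 5.97 and 4.70 CPM in controls and 3.80, 3.75 and 3.36 CPM in Dot1l(fl/+), with no overlap (log2 fold change −0.59, SE 0.15, unadjusted p = 0.00156), and the value of Dot1l(fl/fl) was −0.078. Kcnj3, a subunit of the G protein-gated potassium channel, was at 129.9, 130.4 and 143 CPM in controls and 119.5, 112 and 111 CPM in Dot1l(fl/+) (log2 fold change −0.24, SE 0.055, unadjusted p = 0.000747). Ntng2, a netrin-G that guides axons, stood at 28.1, 28.5 and 29.2 CPM against 23.03, 22.96 and 24.8 CPM. The spread within each of its groups was small beside the step between them (log2 fold change −0.28, SE 0.068, unadjusted p = 0.00124). Mob1b, an activator of the LATS kinases of the Hippo pathway, was at 49.7, 45.6 and 49.4 CPM and 42.9, 37.5 and 35.6 CPM (log2 fold change −0.32, SE 0.072, unadjusted p = 0.000631). Gab3, an adaptor of cytokine receptor signalling, was scarce at 1.56, 1.59 and 2.14 CPM in controls and 0.783, 0.989 and 0.801 CPM in Dot1l(fl/+) (log2 fold change −1.04, SE 0.25). Among other scarce genes, Acot4, an acyl-CoA thioesterase, had a log2 fold change of −0.89 and Ncaph, a condensin subunit, one of −0.76. The keratin Krt9 was at 6.15, 5.45 and 5.07 CPM against 4.03, 3.14 and 3.70 CPM (log2 fold change −0.61, SE 0.14, unadjusted p = 0.000746).

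Among the leading higher genes, Lars2, the leucyl-tRNA synthetase of mitochondria, was at 56.2, 52.5 and 51.7 CPM in controls and 118, 95.5 and 73.5 CPM in Dot1l(fl/+), without overlap (log2 fold change 0.84, SE 0.16, unadjusted p = 0.000152). Lars2 is also in a list of genes suspected to share sequence with ribosomal RNA, so its counts may include reads of that RNA. Of this list 4 genes were tested, all above 0, with 3 higher and 0 lower and a median of 1.06. The list summed to 486, 417 and 438 CPM in controls and to 1197, 1079 and 738 CPM in Dot1l(fl/+), Lars2 included. Most of the sum came from Gm42418, at 391, 322 and 354 CPM in controls and 1032, 925 and 638 CPM in Dot1l(fl/+) (log2 fold change 1.28, SE 0.20, unadjusted p = 2.33e-05). The part of ribosomal RNA reads in the value of Lars2 was not tested. Nop10, a core protein of the H/ACA particles that modify ribosomal RNA and form part of telomerase, was at 16.5, 14.04 and 16.4 CPM in controls and 19.5, 23.5 and 23.8 CPM in Dot1l(fl/+). All its Dot1l(fl/+) pools lay above the controls, the male pool least (log2 fold change 0.51, SE 0.11, unadjusted p = 0.000337). Cops9, a subunit of the COP9 signalosome that removes NEDD8 from ubiquitin ligases, was at 23.8, 25.5 and 25.1 CPM against 28.4, 36.5 and 38.7 CPM (log2 fold change 0.48, SE 0.11, unadjusted p = 0.000864). Tmsb10, which binds actin monomers, was at 1.80, 2.79 and 2.44 CPM in controls and 3.56, 3.82 and 5.08 CPM in Dot1l(fl/+), with the highest level in pool 3 (log2 fold change 0.82, SE 0.19, unadjusted p = 0.000799). Fkbp4, a co-chaperone of HSP90 and steroid receptors, differed by little but with close pools. Its levels were 147, 147 and 144 CPM and 159.8, 172 and 177 CPM (log2 fold change 0.22, SE 0.055, unadjusted p = 0.00164). Mtch1, a carrier-like protein of the outer mitochondrial membrane, was at 263, 259.6 and 251 CPM and 291, 306 and 309.8 CPM (log2 fold change 0.23, SE 0.05, unadjusted p = 0.000497). Ap1s1, of the AP-1 clathrin adaptor, had a log2 fold change of 0.24 (SE 0.063) and Vps37d, of the ESCRT-I complex, one of 0.37 (SE 0.094).

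Zinc finger transcription factors named Zfp, which are mostly C2H2 proteins and include the KRAB repressors that bind transposons and recruit heterochromatin, mostly had slightly lower levels in Dot1l(fl/+). Of 368 measured, 53 had a log2 fold change above 0, against 48.9% of all genes. At an unadjusted p under 0.05, 0 were higher and 41 lower, which is 11.1% against 4.09% of all genes. In 48 the 3 pools lay below the controls and in 0 above them, or 13% against 6.47%. Their median log2 fold change was −0.10 (quartiles −0.18 and −0.037), against −0.0034 for all genes. Single steps were thus small and shared by many genes.

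The genes below carry the pattern with the lowest p and well separated pools. Zfp46 was at 29.9, 31.4 and 32.1 CPM in controls and 25.4, 25.97 and 27.3 CPM in Dot1l(fl/+) (log2 fold change −0.25, SE 0.065, unadjusted p = 0.00199). Zfp37 was at 31.2, 29.97 and 34.1 CPM against 26.4, 23.6 and 27.7 CPM (log2 fold change −0.29, SE 0.078, unadjusted p = 0.00231). In Zfp800 the levels were 21.7, 21.9 and 23.3 CPM and 18.3, 19.4 and 17.4 CPM (log2 fold change −0.28, SE 0.08, unadjusted p = 0.00355). No pool of Dot1l(fl/+) reached a control pool in any of the 3 genes. Zfp808, named for its large fold, was at 1.14, 1.07 and 1.88 CPM against 0.627, 0.848 and 0.687 CPM (log2 fold change −0.92, SE 0.30), with a value of −0.83 in Dot1l(fl/fl).

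Their promoters are printed because these genes, which had lower levels together, were also compared in the letters of their promoters. Each run is the 250 bases before the RefSeq start of the gene in GRCm38.p6, 5′ to 3′ on the gene's strand, and capitals mark a match to the GC box GGGCGG or its reverse complement. Zfp46 lies at chr4:136284426-136284675 on the plus strand, Zfp37 at chr4:62208547-62208796 on the minus strand and Zfp800 at chr6:28398006-28398255 on the minus strand.
Zfp46: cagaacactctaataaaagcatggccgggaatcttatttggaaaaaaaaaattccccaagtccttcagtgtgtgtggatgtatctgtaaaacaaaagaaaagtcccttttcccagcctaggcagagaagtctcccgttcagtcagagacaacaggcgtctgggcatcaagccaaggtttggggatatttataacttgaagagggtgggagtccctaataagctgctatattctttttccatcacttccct
Zfp37: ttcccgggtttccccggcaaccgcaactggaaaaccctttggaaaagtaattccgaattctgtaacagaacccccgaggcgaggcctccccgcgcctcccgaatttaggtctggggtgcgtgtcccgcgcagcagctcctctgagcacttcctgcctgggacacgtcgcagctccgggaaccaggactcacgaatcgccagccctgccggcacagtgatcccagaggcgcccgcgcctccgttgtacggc
Zfp800: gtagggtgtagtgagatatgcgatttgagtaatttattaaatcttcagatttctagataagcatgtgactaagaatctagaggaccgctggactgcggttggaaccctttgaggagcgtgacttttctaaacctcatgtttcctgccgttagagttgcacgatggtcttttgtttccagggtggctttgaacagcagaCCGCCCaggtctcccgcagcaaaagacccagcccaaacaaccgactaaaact
The 3 promoters differ widely in composition, with 43.2, 63.6 and 46.4% G and C. Searched on both strands, the CCAAT box CCAAT, the GC box GGGCGG and the ETS core CCGGAAG had 0, 1 and 0 matches in Zfp800 and none in Zfp46 and Zfp37. No motif is contained in another. Of the 368 Zfp genes, 301 had a promoter in the table, and 45.5% of those held CCAAT, 40.5% GGGCGG and 17.3% CCGGAAG. Among the 38 promoters found for the 41 lower genes the shares were 50, 36.8 and 10.5%. All 27025 promoters of the table held the motifs in 34.5, 32.9 and 7.05%. All 3 shares were higher in Zfp genes than in all promoters, and so were those of the 38 promoters of lower genes. Beside the 301 Zfp promoters, those of the lower genes held CCAAT more often and GGGCGG and CCGGAAG less often. The promoters of the table include those of genes that were not tested here. These shares are descriptions, and no match within this window says only that the letters are not there.

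**Figure D2:**
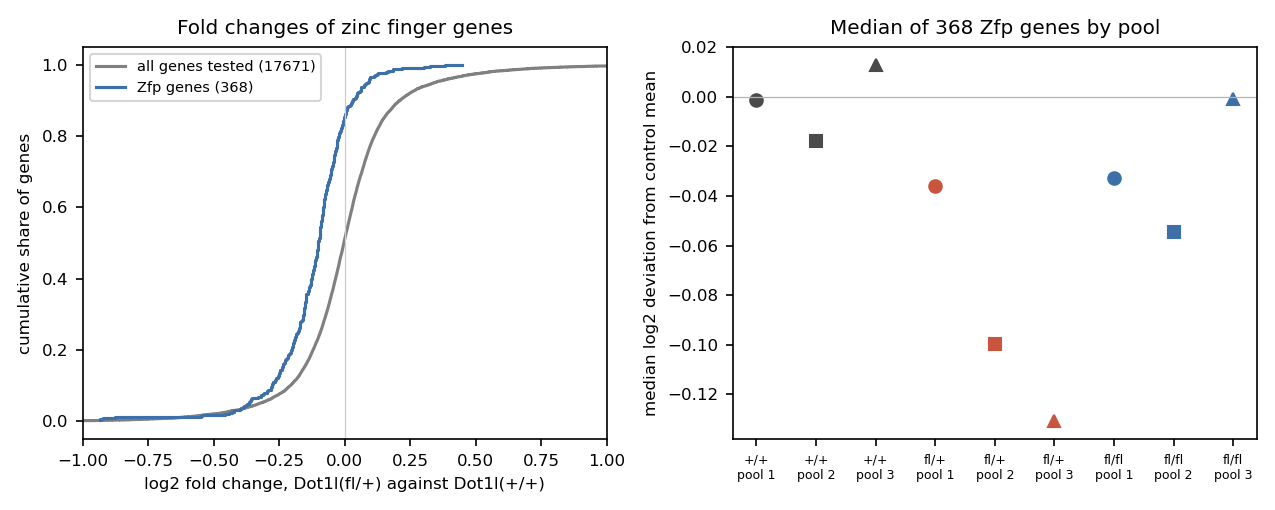
Left, cumulative share of genes against log2 fold change of Dot1l(fl/+) over Dot1l(+/+) for 368 Zfp genes (blue) and all 17671 genes tested (grey); the blue curve lies to the left, with 53 Zfp genes above 0. Right, median log2 deviation of the Zfp genes from the control mean in each pool, with circles for male pools and squares and triangles for the female pools 2 and 3; the lowest 2 points are those of the female Dot1l(fl/+) pools.

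By pool, the median deviation of the 368 Zfp genes from the control mean was −0.036, −0.10 and −0.13 log2 units in Dot1l(fl/+) pools 1, 2 and 3. The controls themselves lay at −0.0012, −0.018 and 0.013. In Dot1l(fl/fl) the values were −0.033, −0.055 and −0.00094, so its pool 3 lay inside the control range. The number lower at an unadjusted p under 0.05 was 6 in Dot1l(fl/fl), which shares the controls, where 1.72% of all genes were lower. The 45 genes on chromosome 17 had a median of −0.20 with 10 lower genes and 4 genes above 0. Chromosome 13 (37 genes) had a median of −0.11 with 7 lower, and chromosome 7 (91 genes) −0.095 with 5 lower. The pattern was present at each level of expression, with medians of −0.18 in the 70 genes under 5 CPM, −0.10 in 146 genes from 5 to 20 CPM and −0.083 in 152 genes from 20 CPM. Zfp transcripts are longer and poorer in G and C than others, with medians of 4587 bases and 44.6% against 3972.5 bases and 49.4%. With the offset for length and GC content, 20 Zfp genes were lower, 0 higher, and the median was −0.062. Leaving out control pool 3 or Dot1l(fl/+) pool 3 gave 22 lower genes each, where 431 and 492 of all genes were lower. Many Zfp genes are near-identical copies in clusters, so reads may be split between members and single values are uncertain.

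Most genes in a list of Dot1l itself, its partners and the elongation machinery had log2 fold changes below 0. Of 22 measured, 4 were above 0 (18.2% against 48.9% of all genes), and 0 were higher and 2 lower at an unadjusted p under 0.05, or 9.09% against 4.09% of all genes. The lower ones were Ccnt2, a cyclin of the elongation factor P-TEFb, and Eaf2, which binds the ELL elongation factors. Ccnt2 was at 119.9, 132 and 137 CPM in controls and 127, 114 and 114 CPM in Dot1l(fl/+), with pool 1 inside the control range. Eaf2, a scarce transcript, was at 0.993, 1.67 and 1.31 CPM and 0.862, 0.883 and 0.916 CPM (log2 fold change −0.58, SE 0.25, unadjusted p = 0.037). The number lower was 0 without pool 3 of either genotype, 1 without pool 2 of either, 5 without Dot1l(fl/+) pool 1 and 4 in the female pools alone. It was 1 with the length and GC offset and 1 with the replicate number as a block, and in both fits this was Dot1l itself. Dot1l was also among the 5 without Dot1l(fl/+) pool 1 and the 4 in the female pools.

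Of 22 methyltransferases of H3K4 and H3K36, 0 were higher and 3 lower (13.6% against 4.09% of all genes), with a median of −0.066. Kmt2e, a SET-domain protein related to trithorax, was at 158, 159 and 151 CPM in controls and at 151, 126 and 134 CPM in Dot1l(fl/+). Its pool 1 came close to the lowest control and pools 2 and 3 lay apart (log2 fold change −0.19, SE 0.062, unadjusted p = 0.00928). Setd1a, the catalytic subunit of an H3K4 methyltransferase complex, was at 31.02, 27.7 and 28.3 CPM and 26.6, 22.05 and 25.7 CPM (log2 fold change −0.23, SE 0.09, unadjusted p = 0.0242). Without Dot1l(fl/+) pool 1 the list had 6 lower genes, and without pool 2 it had 1, where 1112 and 975 of all genes were lower. Ash1l, which methylates H3K36, had a log2 fold change of −0.19 (SE 0.066). Atrx, the remodeller that places histone H3.3 in heterochromatin, was at 269, 261 and 279.9 CPM in controls and 253, 240.3 and 224 CPM in Dot1l(fl/+), without overlap (log2 fold change −0.18, SE 0.055, unadjusted p = 0.00707). Of 26 remodellers 1, Smarcd3, was higher (0.15) and 1, Atrx, lower (3.85% each). The number lower was 6 without Dot1l(fl/+) pool 1, 3 without its pool 2 and 0 with the length and GC offset. Of 15 methyltransferases of H3K9, H3K27 and H4K20, 0 were higher and 2 lower (13.3%). These were Ezh2, the H3K27 methyltransferase (log2 fold change −0.26, SE 0.12), and Kmt5b, which methylates H4K20 (−0.16, SE 0.064). Without Dot1l(fl/+) pool 1 there were 4, and without its pool 2 or 3 or control pool 2 or 3 there were 0. Of 20 lysine demethylases 2 were lower, Kdm7a and Jmjd1c, and of 21 acetyltransferases and bromodomain readers also 2, Ep300 and Kat6b, with 0 higher in both lists. These are 10% and 9.52% of the lists, against 4.09% of all genes. The number of lower demethylases was 0 without control pool 1 or 3, and that of lower acetyltransferases and readers was 0 without control pool 2 or Dot1l(fl/+) pool 2 and 5 without Dot1l(fl/+) pool 1. With the length and GC offset the median of the H3K4 and H3K36 list was −0.025, with 4 lower, that of the H3K9, H3K27 and H4K20 list went from −0.035 to −0.013, with 1 lower, and that of demethylases from −0.055 to −0.025, with 0 lower. The acetyltransferases and readers had 1 lower with it.

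Histone genes under 0.05 were higher, not lower. Of 23 histone genes measured, 4 were higher and 0 lower (17.4% against 4.3%), while the median was −0.046 and 8 of 23 were above 0. H1fx (chr6:87980421-87981637), the linker histone variant H1.10, was at 2.70, 4.04 and 4.13 CPM in controls and 5.84, 5.65 and 6.87 CPM in Dot1l(fl/+). Every Dot1l(fl/+) pool exceeded every control, and its difference was the largest of the list among those under 0.05 (log2 fold change 0.75, SE 0.18, unadjusted p = 0.000885). H2afj, a replication-independent H2A, was at 15.2, 14.6 and 15.4 CPM against 15.7, 21.7 and 19.8 CPM, with pool 1 close to the controls. H2afy, the macroH2A gene, had a log2 fold change of 0.14 and H2afv, an H2A.Z gene, one of 0.24. Leaving out control pool 3 or Dot1l(fl/+) pools 2 or 3 gave 2 higher histone genes, and without either of these Dot1l(fl/+) pools 2 were lower. Of 18 deacetylases and sirtuins 1, Hdac11, was higher and 0 lower (5.56%), or 2 higher without control pool 2 or any 1 of the Dot1l(fl/+) pools and 4 with the length and GC offset. Its levels were 235, 239 and 219 CPM in controls and 256, 261 and 285 CPM in Dot1l(fl/+) (log2 fold change 0.21, SE 0.056, unadjusted p = 0.0021).

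Of 12 subunits of RNA polymerase II 3 were higher and 2 lower (25% and 16.7%). Polr2a, the largest and catalytic subunit, was at 126, 125 and 125 CPM in controls and 113, 97.8 and 117 CPM in Dot1l(fl/+), below all controls (log2 fold change −0.20, SE 0.065, unadjusted p = 0.00888). Polr2c was also lower (−0.22, SE 0.09). The small subunits Polr2i, Polr2f and Polr2g were higher, with log2 fold changes of 0.32, 0.27 and 0.19. The number of higher subunits was 0 without control pool 3, without Dot1l(fl/+) pool 2 or 3 and with the length and GC offset. It was 1 without control pool 1 and 5 without Dot1l(fl/+) pool 1. The number lower was 1 without control pool 1 or 2 or Dot1l(fl/+) pool 1 or 3. Med12, of the Mediator kinase module, was at 47.5, 46.5 and 47.3 CPM and 43.6, 33.5 and 38.9 CPM (log2 fold change −0.29, SE 0.09, unadjusted p = 0.00701), and 0 of 33 Mediator subunits were higher and 2 lower (6.06%), or 7 lower without Dot1l(fl/+) pool 1, and 1 without its pool 3, without control pool 1 or 2 or with the offset. Of 54 SR and hnRNP splicing regulators 2 were higher and 4 lower (3.7% and 7.41%), and the median of −0.067 became 0.0094 with the offset for length and GC content, where 2 were lower. The number lower was 0 without control pool 2, 2 without control pool 3, 7 without control pool 1, and 9 and 8 without Dot1l(fl/+) pools 1 and 2. With the replicate number as a block it was 8.

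**Figure D3:**
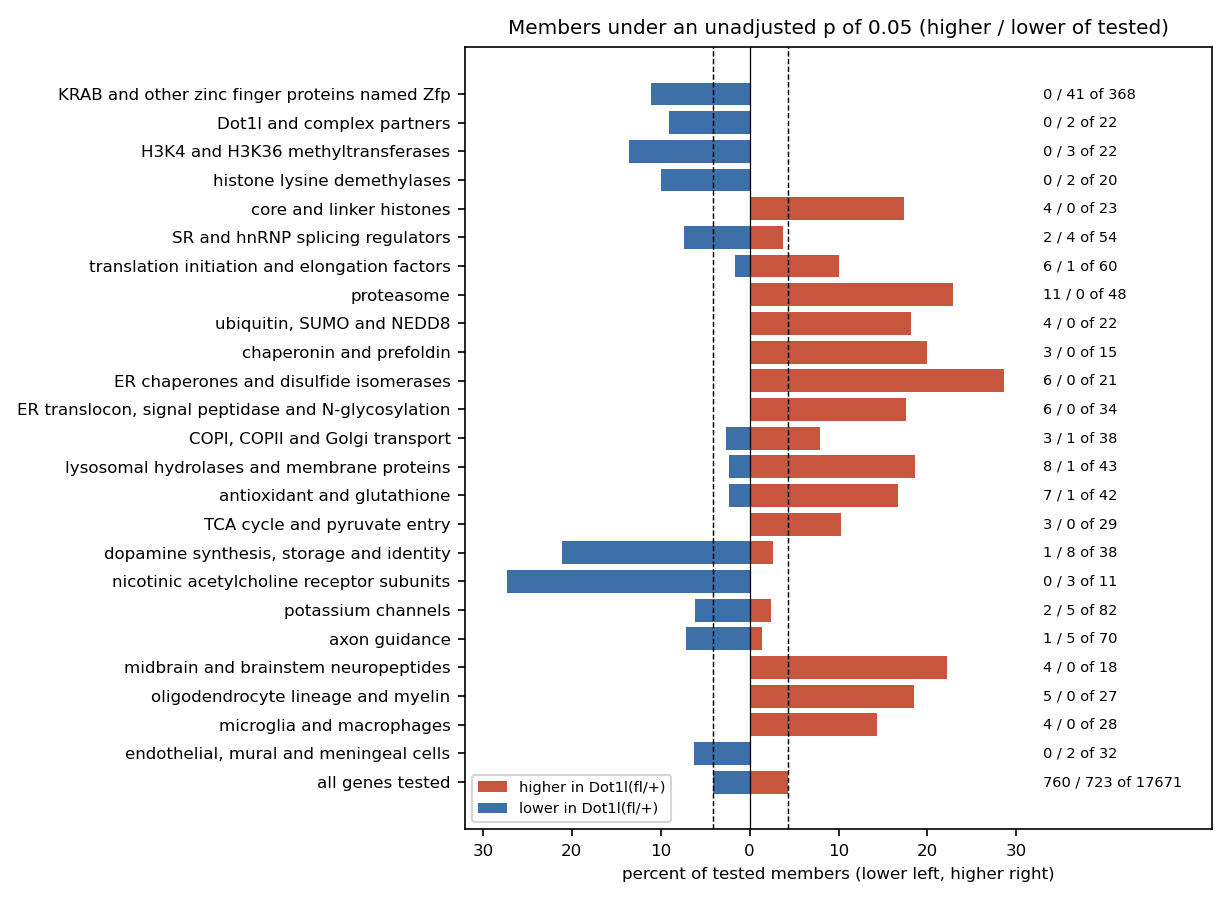
Share of the measured members of each list with an unadjusted p under 0.05, lower to the left in blue and higher to the right in red, for 24 of the 68 lists; dashed lines mark the shares of all genes, 4.09% lower and 4.3% higher. Numbers at the right give members higher, lower and measured; Zfp genes have 0, 41 and 368.

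In protein folding and degradation more genes were higher than lower. Of 48 proteasome genes 11 were higher and 0 lower (22.9% against 4.3% of all genes), with a median log2 fold change of 0.098. The count was 1 without control pool 3, 3 without Dot1l(fl/+) pool 2, 6 without Dot1l(fl/+) pool 3 and 17 without Dot1l(fl/+) pool 1. The median was 0.050 without Dot1l(fl/+) pool 2 and 0.13 without its pool 1. Ubl5, a ubiquitin-like protein bound by the spliceosome, was at 23.98, 24.3 and 23.7 CPM in controls and 27.7, 32.5 and 30.7 CPM in Dot1l(fl/+), with no overlap (log2 fold change 0.34, SE 0.10, unadjusted p = 0.00441). Nedd8 and Anapc11, a RING subunit of the anaphase-promoting complex, were further higher members of the 22 genes for ubiquitin and its relatives, 4 of which were higher and 0 lower (18.2%). This count was 2 without control pool 1, and 2 with 1 lower gene without Dot1l(fl/+) pool 2. Of 15 chaperonin and prefoldin genes 3 were higher (20%), Cct5, Cct4 and Pfdn5, but 0 without control pool 3 or without Dot1l(fl/+) pool 2, 1 without control pool 2 or Dot1l(fl/+) pool 3, 6 without Dot1l(fl/+) pool 1 and 5 with the offset. Among 32 heat shock genes, Cryab, Dnajb2 and Stip1 were higher and 0 lower (9.38%). The number higher was 1 without control pool 3, 5 without control pool 1 and 5 with the replicate block, and 2 were lower without Dot1l(fl/+) pool 1 or 2.

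Lists of the secretory pathway also had more higher than lower members. Of 21 ER chaperones and disulfide isomerases 6 were higher and 0 lower (28.6%), with a median of 0.11. Without Dot1l(fl/+) pool 3 the count was 0 and the median 0.086, without control pool 3 the count was 2, and without control pools 1 or 2 it was 3. Manf, an ER-resident protein that is secreted under ER stress and protects dopamine neurons in models, was at 31.3, 33.6 and 33.4 CPM in controls and 34.9, 40.98 and 45.1 CPM in Dot1l(fl/+). Pool 3 was the highest, and every Dot1l(fl/+) pool exceeded every control (log2 fold change 0.30, SE 0.11, unadjusted p = 0.0136). Pdia6 and Txndc5, both disulfide isomerases, had log2 fold changes of 0.26 and 0.12. Of 34 genes for translocation and N-glycosylation, 6 were higher and 0 lower (17.6%), or 10 higher without Dot1l(fl/+) pool 1. Krtcap2, a subunit of the oligosaccharyltransferase, was at 14.4, 15.6 and 13.2 CPM and 18.9, 18.9 and 19.3 CPM (log2 fold change 0.41, SE 0.09, unadjusted p = 0.000531). Alg1, the mannosyltransferase that adds the first mannose to the glycan precursor, belonged to the leading genes, at 18.96, 17.1 and 15.8 CPM against 24.4, 24.7 and 25.98 CPM (log2 fold change 0.54, SE 0.13, unadjusted p = 0.00146). Genes of the unfolded protein response and integrated stress response had 2 of 30 higher (Atf5 and Asns), 1 lower (Slc7a11) and a median of 0.0026. The shares, 6.67% and 3.33%, lay near those of all genes, and the number higher ran from 1 without control pool 3 or Dot1l(fl/+) pool 2 or 3 to 4 without Dot1l(fl/+) pool 1. In Golgi transport 3 of 38 were higher, Kdelr2, Tmed3 and Trappc2l, and Sec24a was lower (−0.23). These are 7.89% and 2.63% of the list. The number higher was 7 without Dot1l(fl/+) pool 1, 1 without its pool 3 and 6 with the offset, and 2 were higher and 2 lower without its pool 2.

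Of 43 lysosomal genes, 8 were higher and 1, Ids, lower (18.6% higher), and in 10 the pools lay above the controls (23.3% against 6.84%). Lgmn, the protease legumain, was at 105, 109 and 97.1 CPM in controls and 114, 122.6 and 119 CPM in Dot1l(fl/+) (log2 fold change 0.19, SE 0.056, unadjusted p = 0.00429). Ctsl, a cathepsin, and Hexa, a hexosaminidase subunit, had log2 fold changes of 0.16 and 0.18. The count of higher lysosomal genes was 1 without control pool 3, 3 without Dot1l(fl/+) pool 2, 4 without its pool 3 and 5 without control pool 1. Of 40 autophagy genes 3 were higher, among them Gabarapl1 and Pink1, and 1, Rb1cc1, lower (7.5% and 2.5%), with a median of 0.0064. The number higher was 1 without control pool 1 or 3 or Dot1l(fl/+) pool 3 and 5 without Dot1l(fl/+) pool 1. Without Dot1l(fl/+) pool 2, 1 was higher and 3 lower, where 843 of all genes were higher and 975 lower. Among 60 translation factors, 6 were higher and 1 lower (10% and 1.67%), and the number higher was 3 without control pool 3 and 10 without Dot1l(fl/+) pool 1. Eef1b2, of the exchange factor for elongation factor 1A, was at 73.1, 74.03 and 70.2 CPM and 81.1, 97.02 and 90.2 CPM (log2 fold change 0.30, SE 0.069, unadjusted p = 0.00062). Eif3j1 was higher (0.48, SE 0.13) and its near-identical copy Eif3j2 lower (−0.21, SE 0.089), so the counts may be split between them differently in different libraries and both values are uncertain.

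All 3 metallothioneins tested, which bind zinc and copper, were higher, but 1 was without control pool 3, and 2 were without control pool 1 or 2 or without Dot1l(fl/+) pool 2 or 3. Mt2 was at 33.7, 36.7 and 36.4 CPM in controls and 42.2, 50.6 and 41.6 CPM in Dot1l(fl/+), without overlap (log2 fold change 0.33, SE 0.14, unadjusted p = 0.036). The median of the 3 was 0.44, and 0.48 in Dot1l(fl/fl), which shares the controls. Of 42 antioxidant genes 7 were higher and 1 lower (16.7%). Sod1, the cytosolic superoxide dismutase, was at 36.2, 37.6 and 37.7 CPM against 39.99, 45.9 and 45.7 CPM, with pool 1 nearest to the controls (log2 fold change 0.24, SE 0.08, unadjusted p = 0.0106). The count of higher antioxidant genes was 4 without Dot1l(fl/+) pool 2 and 13 without its pool 1. Gpx3 was higher (0.45) and Gclm, the modifier subunit of glutathione synthesis, lower (−0.11). Atox1, the copper chaperone of the secretory pathway, had a log2 fold change of 0.45 (SE 0.13), and Tfrc, the transferrin receptor, one of −0.13 (SE 0.051). Of 24 glycolytic genes 2 were higher and 0 lower (8.33%), or 6 higher without Dot1l(fl/+) pool 1 and 1 without control pool 3. Pfkl, the liver-type phosphofructokinase, was at 158, 158 and 155 CPM and 169, 179 and 189.8 CPM (log2 fold change 0.19, SE 0.054, unadjusted p = 0.00324). Cholesterol synthesis had 0 higher and 2 lower of 25, Insig1 and Sc5d (8%), but 0 lower without control pool 1 or 3 or Dot1l(fl/+) pool 3, and 4 without Dot1l(fl/+) pool 1.

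**Figure D4:**
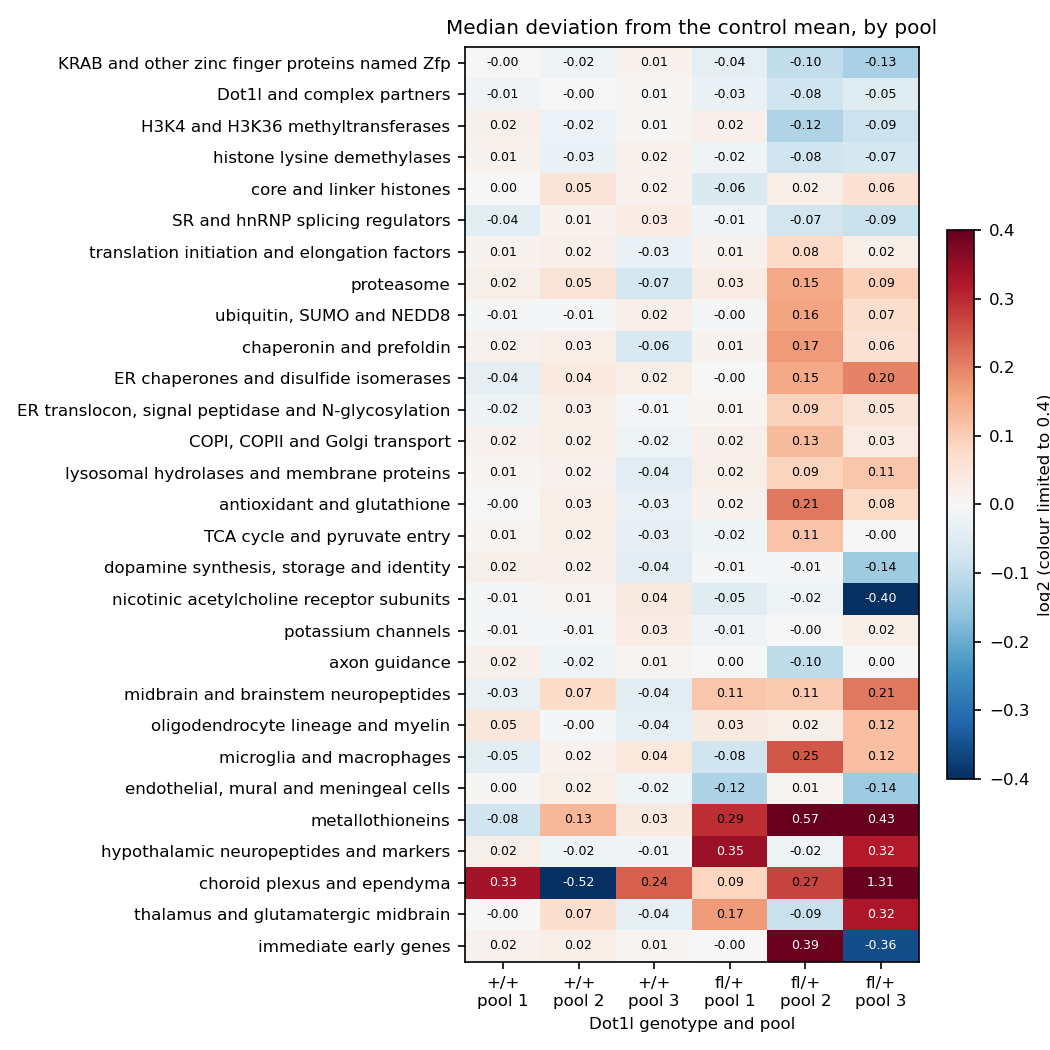
Median log2 deviation of list members from the control mean, 1 row per list and 1 column per pool of the 6 compared libraries, with blue below and red above the controls and the colour limited to 0.4. Within the row of Zfp genes, Dot1l(fl/+) pools 2 and 3 are the lowest, at −0.10 and −0.13. Many lists of protein handling are near 0 in Dot1l(fl/+) pool 1, and metallothioneins lie above the controls in all Dot1l(fl/+) pools.

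In genes of dopamine neurons, 1 of 38 was higher and 8 lower (21.1% against 4.09%), with a median of −0.072, and in 6 the pools lay below the controls (15.8% against 6.47%). The median was −0.030 without Dot1l(fl/+) pool 3 and −0.12 without its pool 1. Slc10a4, a vesicular transporter-like protein of monoamine and cholinergic neurons, was at 15.6, 16.6 and 13.2 CPM in controls and 11.7, 12.7 and 9.46 CPM in Dot1l(fl/+), without overlap (log2 fold change −0.42, SE 0.12, unadjusted p = 0.00417). Qdpr, which recycles the cofactor of tyrosine hydroxylase and is also made by other cells, was the higher one. Without control pool 1 the number lower was 5, and without Dot1l(fl/+) pool 3, which had the lowest sum of the 8 dopamine markers (478 CPM), it was 3. Chrna6, a nicotinic receptor subunit of dopamine terminals, was at 21.5, 19.5 and 21.2 CPM in controls and 15.98, 18.8 and 14.00 CPM in Dot1l(fl/+) (log2 fold change −0.35, SE 0.11, unadjusted p = 0.00673). Chrnb3 and Chrna5 had log2 fold changes of −0.27 and −0.55, and 3 of 11 nicotinic subunits were lower and 0 higher. These 3 are also members of the dopamine list and are counted among its 8 lower genes. The median of the 11 was −0.13, and ran from −0.24 to −0.13 with 1 pool left out. In Dot1l(fl/fl) the median was −0.15. The number lower in Dot1l(fl/+) (27.3%) was 1 without control pool 3.

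Receptors and guidance genes showed shares closer to the background. Of 82 potassium channel genes 2 were higher and 5 lower (2.44 and 6.1%), the lower ones including Kcnj3, Kcnt2 and Kcnd3. The number lower was 3 without control pool 1 or 3, and without Dot1l(fl/+) pool 2 it was 9, beside 5 higher. Of 70 axon guidance genes 1 was higher and 5 lower, among them Ntng2 and the ephrin receptors Epha5 and Epha7, with log2 fold changes of −0.18 and −0.23. In 7 of the 70 the pools lay below the controls, or 10% against 6.47%. The number of lower guidance genes (7.14%) was 10 without Dot1l(fl/+) pool 1 and 3 with the offset. Of 42 growth factor receptors and neurotrophins 3 were lower and 0 higher (7.14% against 4.09%). The number lower was 1 without control pool 1 or Dot1l(fl/+) pool 3 and 5 without control pool 2, and without Dot1l(fl/+) pool 1 it was 6, beside 3 higher. Among them were Ret, the GDNF co-receptor, which is also in the dopamine list (−0.17, SE 0.067), and Ntrk3, the receptor of a neurotrophin (−0.18, SE 0.062).

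Neuropeptide genes differed strongly between single pools. Pmch, the precursor of melanin-concentrating hormone and a marker of the lateral hypothalamus, was at 7.24, 0.472 and 0.751 CPM in controls and 99.4, 0.636 and 49.6 CPM in Dot1l(fl/+). Pools 1 and 3 of Dot1l(fl/+) were high, while pool 2 was at the level of controls, so the groups overlap. Hcrt, the orexin precursor, did not pass the filter on low counts and stood at 0.0946, 0 and 0.188 CPM and 16.2, 0.0707 and 2.63 CPM. Trh followed the same order of pools, with 0.946, 0.301 and 1.01 CPM against 4.62, 0.601 and 3.21 CPM. Of 19 hypothalamic genes 6 were higher and 1 lower (31.6% and 5.26%), or 12 higher without Dot1l(fl/+) pool 2 and 3 without its pool 3. The 10 hypothalamic markers summed to 42.1 to 51.0 CPM in controls and to 165, 41.1 and 96.4 CPM in Dot1l(fl/+). Without pool 2 of Dot1l(fl/+), 5 genes passed an adjusted edgeR p-value of 0.05, Abhd12b, Fezf1, Hcrt, Pmch and Trh. This fit leaves out the pool in which Pmch, Hcrt, Trh and Fezf1 were at control level. Hcrt and Fezf1 were also under the filter of the main fit, so no conclusion is drawn from these calls. Lhx9, a LIM transcription factor of the same list, went the other way, at 34.3, 34.8 and 33.7 CPM in controls and 31.2, 28.6 and 29.1 CPM in Dot1l(fl/+), without overlap (log2 fold change −0.21, SE 0.063, unadjusted p = 0.00513). Among 18 neuropeptides of midbrain and brainstem 4 were higher and 0 lower (22.2%), or 8 higher without Dot1l(fl/+) pool 2, 2 without its pool 1 or control pool 3 and 1 without its pool 3. Cbln1, a secreted organizer of contacts between neurons, was at 22.8, 24.6 and 23.5 CPM against 31.3, 25.5 and 35.3 CPM (log2 fold change 0.38, SE 0.11, unadjusted p = 0.00416). Pdyn and Penk, the opioid precursors, had log2 fold changes of 0.47 and 0.22.

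**Figure D5:**
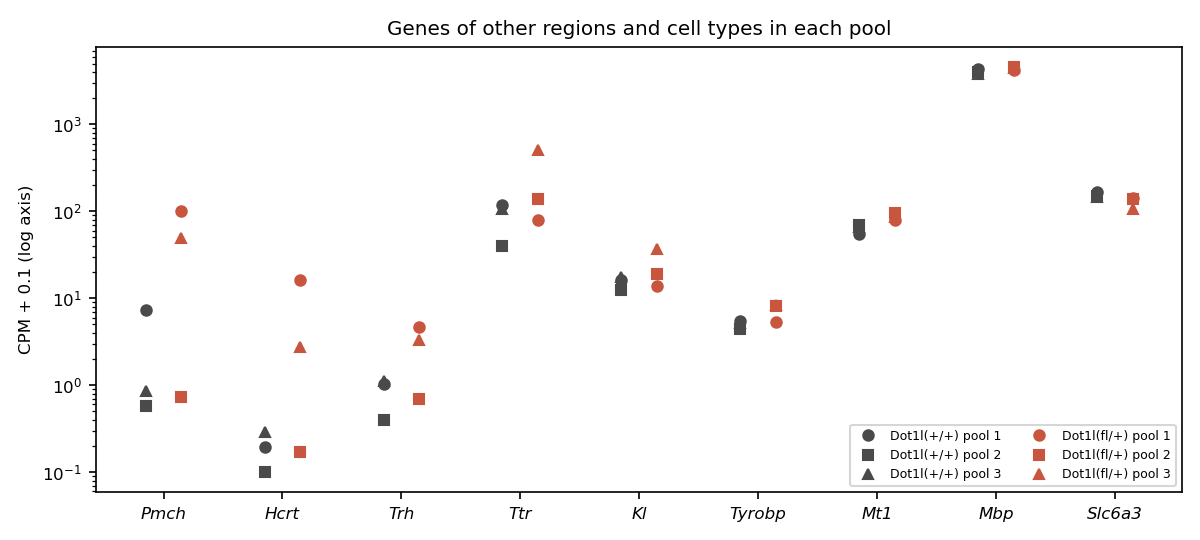
Levels of 9 genes in each pool, as CPM plus 0.1 on a log axis, with controls in grey and Dot1l(fl/+) in red. They are genes of other regions and cell types, the metallothionein gene Mt1 and the dopamine neuron marker Slc6a3. Pmch, Hcrt and Trh are high in Dot1l(fl/+) pools 1 and 3 and at control level in pool 2, and Ttr is highest in Dot1l(fl/+) pool 3.

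Choroid plexus and ependymal genes also set single pools apart. All 16 were above 0, 5 were higher and 0 lower (31.2%), and the median log2 fold change was 0.54. Ttr, the thyroid hormone carrier made by the choroid plexus, was at 116, 39.5 and 106 CPM in controls, 79.7, 137 and 505 CPM in Dot1l(fl/+) and 19.2, 13.4 and 15.6 CPM in Dot1l(fl/fl). Pool 3 of Dot1l(fl/+) was far above all controls and control pool 2 far below the others. Without this Dot1l(fl/+) pool the median of the list was 0.080, and without it or without control pool 2, 0 genes were under 0.05, while 9 and 8 were higher without Dot1l(fl/+) pools 1 and 2. The part of these differences between pools in the other results was not tested. Col3a1 and Col1a1, fibrillar collagen genes of the meninges and vessels, were lower. Col3a1 was at 9.36, 10.8 and 11.1 CPM in controls and 7.25, 9.08 and 6.72 CPM in Dot1l(fl/+), without overlap (log2 fold change −0.44, SE 0.14, unadjusted p = 0.0068). Col1a1 had a log2 fold change of −0.44 (SE 0.14), and 0 of 32 vascular and meningeal genes were higher and 2 lower (6.25% against 4.09%), or 12 lower without Dot1l(fl/+) pool 2, 4 without its pool 1 or control pool 3 and 1 without control pool 1.

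Oligodendrocyte and microglial lists had more higher than lower members. Of 27 oligodendrocyte genes 5 were higher and 0 lower (18.5%), or 2 without Dot1l(fl/+) pool 3, 3 without control pool 3 and 8 without Dot1l(fl/+) pool 2. Cldn11, the tight junction protein of myelin, was at 126, 118 and 118 CPM and 135, 146 and 157 CPM (log2 fold change 0.27, SE 0.078, unadjusted p = 0.00385). Of 28 microglial genes 4 were higher and 0 lower (14.3%), with a median of 0.11. Without Dot1l(fl/+) pool 1 the microglial count was 10, and without its pool 2 or control pools 1 or 3 it was 2. The microglial median was 0.19 without Dot1l(fl/+) pool 1 and 0.057 without its pool 2. Tyrobp, the adaptor of microglial receptors, was at 5.39, 4.38 and 5.11 CPM in controls and 5.29, 8.13 and 8.32 CPM in Dot1l(fl/+), with pool 1 inside the control range and pools 2 and 3 above it (log2 fold change 0.55, SE 0.17, unadjusted p = 0.00589). Selplg and Ctss had log2 fold changes of 0.28 and 0.20. Of 22 astrocyte genes 2 were higher and 1 lower (9.09% and 4.55%), with a median of 0.023, and 0 were higher without control pool 3.

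Genes beside Dot1l were examined because the floxed allele differs between the genotypes by construction. Whether the DNA beside it also differs is not stated in the sources used here and was not tested. Of 133 genes measured within 2 Mb of Dot1l, 8 were higher and 2 lower (6.02 and 1.5%, against 4.3 and 4.09% of all genes). The median log2 fold change was 0.023. Both directions together made 10 genes, 4 without Dot1l(fl/+) pool 3, 6 without control pool 3 and 21 without Dot1l(fl/+) pool 1. Among the higher ones were Timm13, of mitochondrial import, Gamt, of creatine synthesis, Stk11, the kinase LKB1, and Bsg, the partner of lactate transporters. Their log2 fold changes were 0.26, 0.40, 0.16 and 0.18. The higher ones also included Uqcr11 and Ndufs7 of the respiratory chain and Rps15 of the ribosome. Of all members tested of the respiratory chain and cytosolic ribosome lists, 43.1% and 24.4% were higher. Gipc3, a PDZ protein known from hearing, was the largest step, at 0.567, 0.988 and 1.20 CPM in controls and 0.313, 0.318 and 0.420 CPM in Dot1l(fl/+) (log2 fold change −1.40, SE 0.38, unadjusted p = 0.00272). Of 262 genes within 10 Mb, 18 were higher and 5 lower (6.87 and 1.91%, against 4.3 and 4.09% of all genes).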

How the data were processed

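RNA of dissected midbrain, pooled from 3 mice per library, was made into directional libraries and sequenced by the authors. Per the labels and the submitters' processing notes, they used bcl2fastq 2.17, Trimmomatic 0.30, GRCm38.p4 and DESeq2 1.10.1, and deposited whole-number counts for each Ensembl identifier. The aligner, counter and annotation are not given in the sources used here. Each file held 47729 identifiers, of which 47310 had a gene in GENCODE M21.

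From the counts, edgeR 4.0.16 (R 4.3.3) was fitted to all 9 libraries with genotype as the factor, filterByExpr (17671 genes), TMM and the quasi-likelihood test with Benjamini-Hochberg adjustment, and the contrast of Dot1l(fl/+) with Dot1l(+/+) was read. "Higher" and "lower" in a list count members with an unadjusted p under 0.05. Replicates are separate pools, so p-values measure the spread between pools. The study's methods describe pools matched by litter across the genotypes, but no source used here says that the replicate numbers mark these matched sets, so the fit is without a block and the blocked fit is an alternative. Alternatives were DESeq2 1.42.0, other size factors and filters, 6 libraries, the replicate number as a block, an offset for length and GC content, and each library left out. Sex of the pool was added after the data were seen. Steps were tested on simulated data.

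The members and gene lists were chosen with earlier results of these data known. Genes were named from among Dot1l and partners, the 15 lowest p-values in each direction without overlap of pools, the 6 largest folds at p under 0.01, up to 3 members per list and direction with markers that define a list, genes past adjustment in any fit and genes near Dot1l, and not every gene of these rules is described. Sh3bgrl, Ranbp3l, Gm2000, 1110051M20Rik, Gstp1, Drc7 and most of the 45 genes that passed adjustment in DESeq2 on 6 libraries have no values in the text. Zfp37 and Zfp800 were the next Zfp genes by p. Promoters are from RefSeq. Values of single synaptic genes and of some other list members are not reported here.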

Additional observations from a re-analysis of the deposited data

How the results depend on the processing

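The number of genes past an adjusted p of 0.05, 0 in edgeR on 9 libraries, was 3 in DESeq2 on 9 libraries (Gm42418, Guf1 and Rps21), 45 in DESeq2 on 6 libraries with and without a prior on fold changes, 1 in edgeR on 6 libraries (Gm42418), 251 without a filter on low counts and 1 in female pools. Leaving out 1 library gave 0 to 5. The count higher at an unadjusted p under 0.05, 760, was 1187 without a filter and 519 to 1123 with 1 library left out. The count lower, 723, was 411 in DESeq2 on 6 libraries, 400 with the prior, 456 with the length and GC offset and 431 to 1112 with 1 library left out. Under 0.01, the 179 higher were 516 without a filter and 78 to 396 with 1 library left out. The 136 lower under 0.01 were 83 in DESeq2 on 6 libraries, 82 with the prior, 75 in edgeR on 6 libraries, 338 without a filter, 65 with the offset, 81 with the offset and the replicate block, and 55 to 323 with 1 library left out. The 41 lower Zfp genes were 20 with the offset, 18 with offset and block, and 22 to 59 with 1 library left out. The 10 genes near Dot1l were 19 in female pools and 4 to 21 with 1 library left out. Of the named leading genes Arhgap5 alone reversed, to 0.00052 with the offset and 0.00062 with offset and block, and the cause was not tested. With 3 pools per genotype, fold changes near the median standard error could not be resolved.

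With the replicate number as a block, 0 genes passed adjustment, 842 were higher and 809 lower under 0.05, and 242 and 147 under 0.01. Deviations of same-numbered pools correlated at 0.245, 0.133 and 0.032 over 12360 genes, and sex follows the number, with pool 1 male in each genotype. Pools were matched by litter, but whether the numbers mark the matched sets is not stated and 1 correlation was under 0.1, so the pairing by number was not used in the main values. With the block, the lower SR and hnRNP genes went from 4 to 8, the higher heat shock genes from 3 to 5 and the higher TCA cycle genes from 3 to 5, and Dot1l had an unadjusted p of 0.0163. The list medians differed from the main value by more than the spread between replicates in 57 of 1188 comparisons.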

Other observations

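Immediate early genes, which neurons switch on within minutes of activity, had 0 of 29 members under an unadjusted p of 0.05, but their pools lay far apart. Their median deviation from the control mean was 0.39 log2 units in Dot1l(fl/+) pool 2 and −0.36 in pool 3. Without pool 2 the list's median log2 fold change was −0.13 with 4 lower and 1 higher, and without pool 3 it was 0.24 with 9 higher. Circadian clock genes had 0 of 22 members under 0.05. Markers of thalamus and glutamatergic midbrain had a median of 0.18, with 15 of 19 above 0 and 1 higher under 0.05. Without Dot1l(fl/+) pool 3 this median was 0.083, and without Dot1l(fl/+) pool 2 it was 0.23 with 10 genes higher. All 7 cholinergic and motor neuron genes were above 0, with a median of 0.33 and 1 under 0.05. Their median was 0.12 without Dot1l(fl/+) pool 2, 0.18 without control pool 3, 0.19 without Dot1l(fl/+) pool 3 and 0.48 without control pool 1.

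By annotation class, 124 of 1032 processed pseudogenes were higher and 11 lower under 0.05 (12% and 1.07%), beside 4.3% and 4.09% of all genes. Of 400 TEC transcripts, candidate transcripts still to be verified, 4 were higher and 26 lower (1% and 6.5%), with a median of −0.14. Of 430 long intergenic RNAs 12 were higher and 19 lower (2.79% and 4.42%).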
